A study of Mus musculus with 6 samples.

Results

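The genes described here are the receptors and partners through which fatty acid signals reach the genome: the 3 PPAR genes (Pparg, Ppara and Ppard), the 3 RXR genes (Rxra, Rxrb and Rxrg), the coactivator genes Ppargc1a and Ppargc1b, and the transcription factor genes Cebpa and Esrra. They were chosen by name as rows of the deposited count table, and all 10 of 10 were found there among 21878 genes. RNA was sequenced from mouse Achilles tendon 3 times after amputation of that tendon (cut 1 to 3) and 3 times after a sham operation (sham 1 to 3). The series title places the comparison in work on a KLF2 and PPARγ axis in heterotopic ossification after trauma, in which bone forms within soft tissue. The labels give no strain, age, sex or time after surgery, nor whether each library is a different animal, so p-values cover the spread between these libraries alone, and that spread may be technical.

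PPARs are nuclear receptors that bind fatty acids and their derivatives, pair with an RXR and sit on DNA at repeats of a short hexamer. PPARγ, together with the factor C/EBPα, drives and maintains the adipocyte state. PPARα and PPARδ turn on fatty acid oxidation, in muscle and liver among other tissues. PGC-1α and PGC-1β, the products of Ppargc1a and Ppargc1b, are coactivators that bind these receptors and the estrogen-related receptor ERRα, the product of Esrra, and raise the output of mitochondrial genes.

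Library totals ran from 28410231 to 31346730 counts in cut tendon and from 23916839 to 27140226 in sham tendon. Markers of tendon fibroblasts, 5 of 8 called higher, were present in every library and took 5.74% to 14.6% of the counts in cut tendon and 0.580% to 1.504% in sham tendon, with Tnmd at 456 to 1014 CPM (read counts relative to library size, scaled by TMM) in cut tendon and 44.5 to 78.2 CPM in sham tendon. Most of the fibroblast marker share was Col1a1 and Col1a2, at 34514 to 89951 and 20194 to 48382 CPM in cut tendon. Mkx, Fmod and Thbs4 of that list were not called. Skeletal muscle RNA was present too. A skeletal muscle marker list of 30 genes, all 30 measured and none at 0 throughout, had no gene called lower or higher. Together these genes took 1.71%, 0.534% and 16.5% of the counts in cut 1 to 3, against 20.5%, 20.1% and 22.3% in sham 1 to 3. Cut 3 thus stood apart from cut 1 and cut 2 and lay closer to the sham libraries in muscle RNA, so results that rest on it are also given without it. In bulk tissue, fewer cells of a type and less RNA per cell cannot be told apart.

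The promoters of the 4 genes that passed the test are shown here because these genes were lower together, each with the 250 bases before each start listed in a RefSeq promoter table on GRCm38.p6, which does not hold every start. Pparg is shown at all 3 of its listed starts because counts per gene do not tell them apart. The windows of Pparg, Ppara and Ppargc1a lie inside the spans of these genes given below, and that of Cebpa lies just before its span. Ppargc1a has 1 listed start, and its other starts are not shown. Capitals mark the receptor hexamer AGGTCA, the GC box GGGCGG and the TATA box TATAAA, on either strand.
Pparg, start 1 (chr6:115360894-115361143, plus strand): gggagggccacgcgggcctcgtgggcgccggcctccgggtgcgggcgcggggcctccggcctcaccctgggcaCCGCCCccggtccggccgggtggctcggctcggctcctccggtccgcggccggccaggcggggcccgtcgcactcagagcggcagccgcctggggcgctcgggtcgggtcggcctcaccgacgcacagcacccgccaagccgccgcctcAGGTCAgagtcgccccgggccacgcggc
Pparg, start 2 (chr6:115362099-115362348, plus strand): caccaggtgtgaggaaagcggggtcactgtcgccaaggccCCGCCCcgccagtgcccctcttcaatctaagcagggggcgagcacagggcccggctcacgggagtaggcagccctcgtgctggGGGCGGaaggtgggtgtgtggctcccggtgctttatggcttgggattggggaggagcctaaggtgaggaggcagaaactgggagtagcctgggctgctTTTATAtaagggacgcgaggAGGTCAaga
Pparg, start 3 (chr6:115421816-115422065, plus strand): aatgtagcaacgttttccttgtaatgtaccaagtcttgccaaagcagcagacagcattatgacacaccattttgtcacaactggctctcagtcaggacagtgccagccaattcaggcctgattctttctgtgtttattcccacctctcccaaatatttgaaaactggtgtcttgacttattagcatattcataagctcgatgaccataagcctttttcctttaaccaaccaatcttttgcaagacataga
Ppara (chr15:85735526-85735775, plus strand): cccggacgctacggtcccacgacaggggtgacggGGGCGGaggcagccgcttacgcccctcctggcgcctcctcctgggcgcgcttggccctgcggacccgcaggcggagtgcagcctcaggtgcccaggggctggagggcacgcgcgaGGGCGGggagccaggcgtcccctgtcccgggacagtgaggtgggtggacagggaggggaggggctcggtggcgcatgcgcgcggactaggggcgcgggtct
Ppargc1a (chr5:51567726-51567975, minus strand): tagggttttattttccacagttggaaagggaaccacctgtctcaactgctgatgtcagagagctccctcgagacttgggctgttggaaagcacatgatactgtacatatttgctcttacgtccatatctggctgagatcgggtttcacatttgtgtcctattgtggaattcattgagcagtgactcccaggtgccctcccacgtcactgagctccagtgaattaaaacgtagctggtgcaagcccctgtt
Cebpa (chr7:35119043-35119292, plus strand): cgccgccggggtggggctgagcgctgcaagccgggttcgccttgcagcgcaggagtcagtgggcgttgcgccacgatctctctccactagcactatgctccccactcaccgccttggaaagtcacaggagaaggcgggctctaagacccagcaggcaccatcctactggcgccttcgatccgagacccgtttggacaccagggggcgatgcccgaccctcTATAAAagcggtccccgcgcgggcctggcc
Promoter windows of 9 of the genes were examined, 14 windows in all, and Ppargc1b was left out. The hexamer AGGTCA occurred in 4 of these 14 windows, belonging to 3 genes (Pparg, Rxra and Rxrg), against 14.0% of all 32851 annotated windows of the same length. At Pparg it began 28 bases before start 1 and 9 bases before start 2, and it did not occur before start 3. The full PPAR response element, 2 copies of that hexamer in a row with any 1 base between them, and the ERR element TCAAGGTCA, which also contains it, occurred in 0 of the 14 windows and in 0.0335% and 0.387% of all windows. The GC box occurred in 8 of the 14 windows, against 32.7% of all windows. A TATA box occurred in 2 of them, 30 bases before the start of Cebpa and 29 bases before start 2 of Pparg, against 12.4% of all windows. Bases G and C made up 82.4%, 63.6% and 40.8% of the windows before Pparg starts 1, 2 and 3, and 48.0% of the window before Ppargc1a. These are letter matches only, and binding was not measured.

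In cut tendon Pparg, Cebpa, Ppara and Ppargc1a fell, no member rose (0 of 10 in edgeR and 0 of 10 in DESeq2), and the other 6 members did not pass the test. The test was the quasi-likelihood test of edgeR, adjusted over all 14561 tested genes by Benjamini-Hochberg, all 10 members included, with a threshold of adjusted p under 0.05. Of all tested genes, 12.2% were called lower and 20.4% higher, so 4 of 10 members lower stands beside a background of 12.2%. All 10 members had a negative log2 fold change, with a median of -1.28, beside a median of -0.02 over all tested genes. For 7 of the 10 members every cut library lay below every sham library, beside 26.1% of tested genes.

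**Figure D1:**
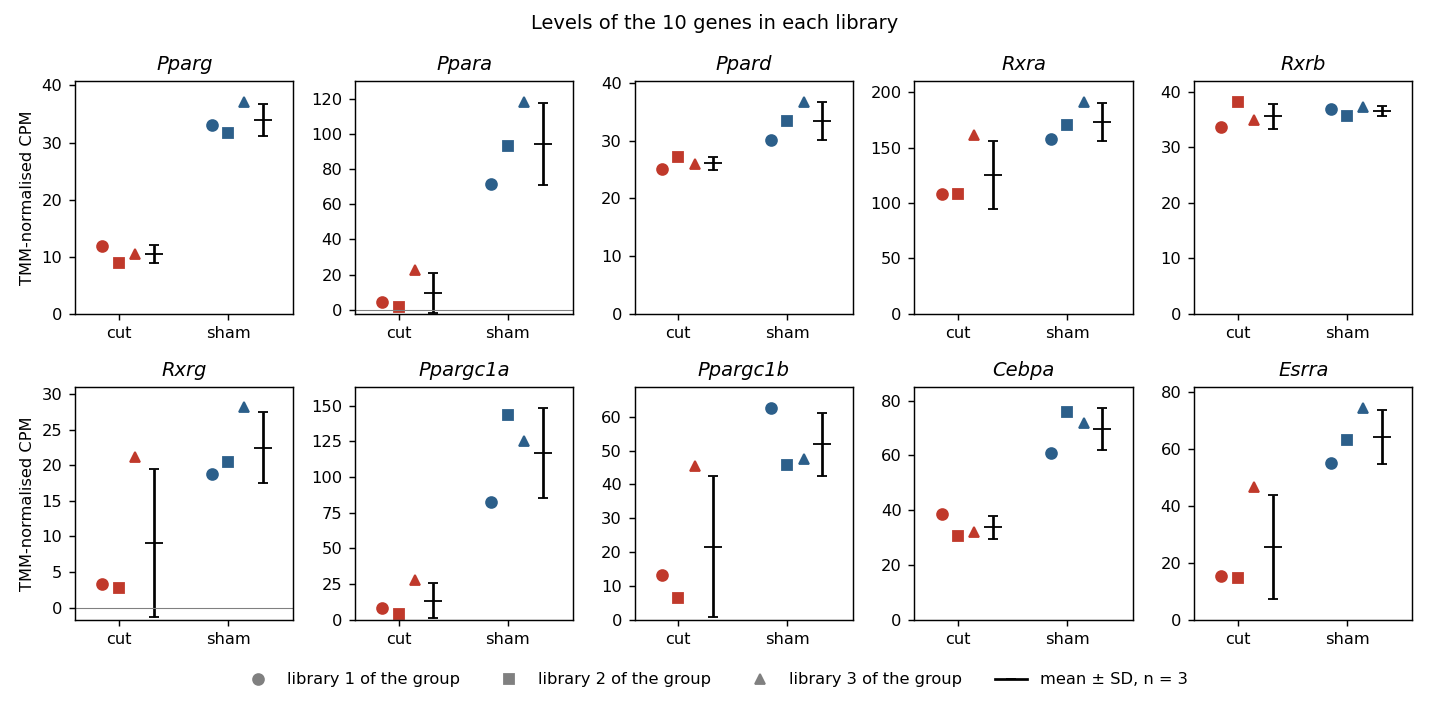
TMM-normalised CPM of each gene in the 3 cut libraries (left, red) and the 3 sham libraries (right, blue), with the mean ± SD of each group beside the points. Pparg and Cebpa are low in all 3 cut libraries, while Rxrg, Ppargc1b and Esrra are low in cut 1 and cut 2 and higher in cut 3 (triangles).

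Pparg encodes the receptor that governs adipocyte differentiation and lies on chromosome 6 at 115360879 to 115490404 (GRCm38.p6, as for all positions here). It stood at 11.9, 8.84 and 10.5 CPM in cut 1 to 3, against 33.1, 31.6 and 37.1 CPM in sham 1 to 3. The groups were far apart, and cut 3 lay between cut 1 and cut 2. Pparg fell by 1.70 ± 0.15 on the log2 scale (SE, n = 3 per group; adjusted p = 0.00325, edgeR quasi-likelihood, Benjamini-Hochberg), which is a level 3.26-fold higher in sham tendon. It was called under each of the 17 alternative settings, with log2 values from -1.81 to -1.43.

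Cebpa encodes C/EBPα, which works with PPARγ in adipocytes, and lies on chromosome 7 at 35119293 to 35121928. It stood at 38.7, 30.8 and 32.1 CPM in cut 1 to 3, against 61.0, 75.7 and 72.0 CPM in sham 1 to 3. As with Pparg, no cut library reached the lowest sham library and cut 3 did not stand out. Cebpa fell by 1.04 ± 0.15 on the log2 scale (adjusted p = 0.00605, edgeR quasi-likelihood, Benjamini-Hochberg), and it too was called under each of the 17 settings, between -1.14 and -0.97. Its exons overlap those of Gm45091 on the other strand, whose reads cannot be told apart from its own if strand was not used in counting. Adipocyte markers were lower in the same libraries. Of 7 such markers 6 were called lower (3 of the 7, Adipoq, Plin1 and Cidec, are also among the PPARγ targets below), none was at 0 throughout, and together they took 0.0153% to 0.0334% of the counts in cut tendon and 0.0711% to 0.118% in sham tendon. Their part in the lower Pparg and Cebpa levels was not tested.

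Ppara encodes the receptor that drives fatty acid oxidation and lies on chromosome 15 at 85734910 to 85806851. It stood at 4.64, 1.65 and 22.6 CPM in cut 1 to 3, against 71.7, 93.2 and 118 CPM in sham 1 to 3. The groups did not overlap, but within cut tendon cut 3 was several times higher than the other libraries. Ppara fell by 3.29 ± 0.92 on the log2 scale (adjusted p = 0.0378, edgeR quasi-likelihood, Benjamini-Hochberg), the largest fold change among the 10 members. The value was -4.90 without cut 3. The call was lost without sham 1 (-3.46), sham 2 (-3.31), sham 3 (-3.12) or cut 1 (-2.96), and with no filter on low counts (-3.31).

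Ppard encodes the most widely expressed PPAR and lies on chromosome 17 at 28232754 to 28301469. It stood at 25.01, 27.1 and 26.0 CPM in cut 1 to 3, against 30.1, 33.3 and 36.7 CPM in sham 1 to 3. The groups did not overlap, but the gap between them was small. The log2 fold change was -0.36 ± 0.12 (adjusted p = 0.0586, edgeR quasi-likelihood, Benjamini-Hochberg), so Ppard did not pass the test, although it did without cut 3 (-0.36, adjusted p = 0.0461) and with muscle genes out of the library sizes (-0.38).

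The shares of the 3 genes within the PPAR family are given next. Levels of different genes are compared here as FPKM (fragments scaled by gene length and library total, the authors' values), which divides by length. Ppard made up 67.0%, 75.9% and 61.3% of the summed PPAR FPKM in cut 1 to 3, against 36.7%, 36.9% and 34.5% in sham 1 to 3. Pparg made up 22.6% to 29.2% in cut tendon and 31.9% to 36.9% in sham tendon. Ppara made up 3.76%, 1.40% and 16.1% in cut 1 to 3 and 26.4% to 33.6% in sham tendon. The summed PPAR level was 11.96 ± 1.096 FPKM in cut tendon and 28.8 ± 2.92 FPKM in sham tendon (SD, n = 3 each). The log2 ratio of Ppara to Pparg, as FPKM, averaged -2.49 ± 1.81 in cut tendon and -0.15 ± 0.30 in sham tendon (SD, n = 3 each). In a 2-sided exact permutation test, p was 0.1, the smallest that 3 against 3 libraries allow, and 0.15 after adjustment over 3 such ratios. Cut 3, at a ratio of 0.713, lay next to sham 1, at 0.714, while cut 1 and cut 2 were at 0.128 and 0.0618.

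**Figure D2:**
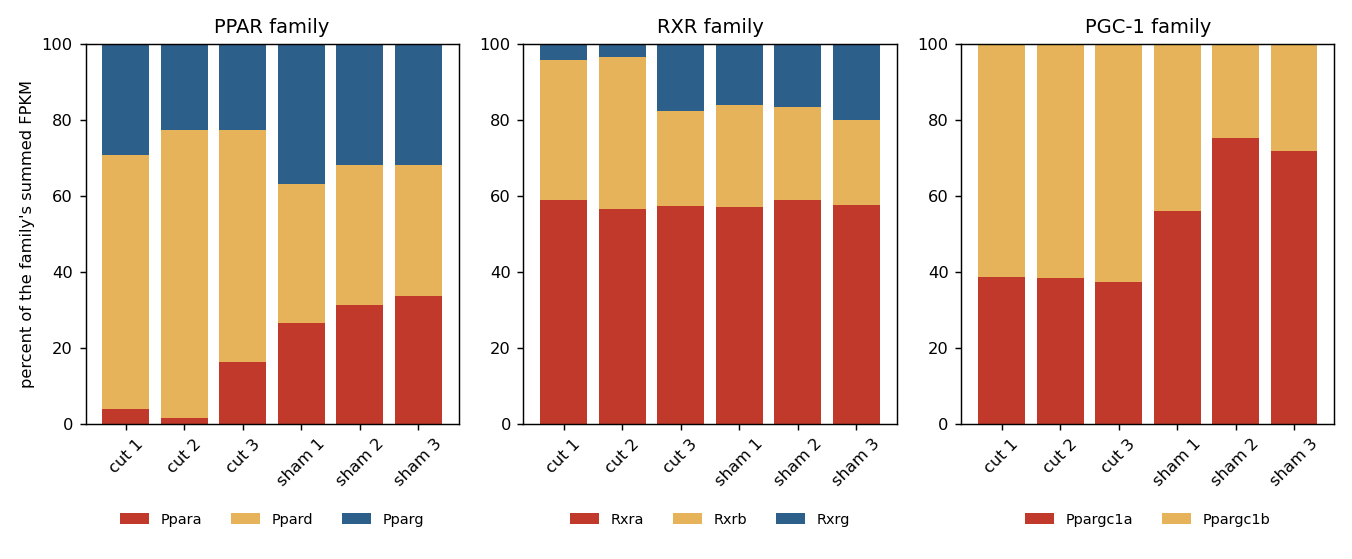
Stacked bars of each gene's percent of its family's summed FPKM, per library, for the PPAR, RXR and PGC-1 families (cut 1 to 3 left, sham 1 to 3 right). Ppard takes 61.3% to 75.9% of the PPAR bars in cut tendon and 34.5% to 36.9% in sham tendon, and Ppargc1a takes 37.2% to 38.7% of the PGC-1 bars in cut tendon and 56.0% to 75.2% in sham tendon.

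None of the RXR genes, which encode the obligate partners of the PPARs, passed the test. Rxra, the most abundant of them, lies on chromosome 2 at 27676445 to 27763319. It stood at 108, 108 and 161 CPM in cut 1 to 3, against 157, 171 and 191 CPM in sham 1 to 3. Cut 3 lay within the sham range and the other cut libraries below it. The log2 fold change was -0.46 ± 0.20 (adjusted p = 0.12, edgeR quasi-likelihood, Benjamini-Hochberg), and -0.68 without cut 3 (adjusted p = 0.0029).

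Rxrb lies on chromosome 17 at 34031812 to 34038403 and encodes the broadly expressed RXRβ. It stood at 33.6, 38.1 and 34.96 CPM in cut 1 to 3, against 36.9, 35.6 and 37.2 CPM in sham 1 to 3. The groups overlapped and the sham libraries lay inside the range of the cut libraries. The log2 fold change was -0.04 ± 0.10 (adjusted p = 0.778, edgeR quasi-likelihood, Benjamini-Hochberg), and its sign turned with upper quartile scaling (0.012) and without cut 1 (0.0017).

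Rxrg encodes RXRγ, whose expression is more restricted and includes skeletal muscle, and lies on chromosome 1 at 167598362 to 167639623. It stood at 3.35, 2.83 and 21.1 CPM in cut 1 to 3, against 18.8, 20.4 and 28.1 CPM in sham 1 to 3. Cut 1 and cut 2 were far below every sham library, and cut 3 lay among them. The log2 fold change was -1.30 ± 0.78 (adjusted p = 0.226, edgeR quasi-likelihood, Benjamini-Hochberg). Without cut 3 it was -2.86 and called, and with the summed level of the muscle markers as a covariate it was 0.02. That covariate fit leans on cut 3, the only cut library with muscle RNA near sham levels. Rxra kept a near constant share of the summed RXR FPKM, at 56.5% to 58.9% in cut tendon and 57.2% to 58.9% in sham tendon. Rxrg took 4.298%, 3.48% and 17.6% in cut 1 to 3 and 16.0% to 19.9% in sham tendon, and Rxrb 36.8%, 40.0% and 24.9% in cut 1 to 3 and 22.5% to 26.8% in sham tendon. The log2 ratio of Rxrg to Rxra, as FPKM, averaged -3.17 ± 1.27 in cut tendon and -1.74 ± 0.17 in sham tendon (SD, n = 3 each; 2-sided exact permutation p = 0.3, 0.3 adjusted over the 3 ratios).

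Of the coactivators, Ppargc1a fell and Ppargc1b did not pass the test. Ppargc1a, the gene of PGC-1α, lies on chromosome 5 at 51454249 to 52115853. It stood at 8.57, 4.15 and 27.8 CPM in cut 1 to 3, against 82.3, 143 and 125 CPM in sham 1 to 3. Every cut library lay well below every sham library, and cut 3 was the highest of the cut libraries. Ppargc1a fell by 3.11 ± 0.71 on the log2 scale (adjusted p = 0.0214, edgeR quasi-likelihood, Benjamini-Hochberg). The value was -4.20 without cut 3, and the call was lost without sham 1 (-3.31), sham 2 (-2.95), sham 3 (-3.09) or cut 1 (-2.87).

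Ppargc1b, the gene of PGC-1β, lies on chromosome 18 at 61291445 to 61400756. It stood at 13.2, 6.45 and 45.4 CPM in cut 1 to 3, against 62.5, 45.7 and 47.5 CPM in sham 1 to 3. Cut 3 lay just below the lowest sham library. The log2 fold change was -1.26 ± 0.67 (adjusted p = 0.183, edgeR quasi-likelihood, Benjamini-Hochberg), and -2.40 without cut 3, where it was called. The order of both coactivator genes in level per length differed between the groups. Ppargc1a stood at 0.631, 0.623 and 0.593 times the FPKM of Ppargc1b in cut 1 to 3, and at 1.27, 3.03 and 2.55 times in sham 1 to 3. The ratio in cut 3 was close to that in cut 1 and cut 2, unlike the separate levels of both genes. On the log2 scale the ratio averaged -0.70 ± 0.05 in cut tendon and 1.1 ± 0.66 in sham tendon (SD, n = 3 each; 2-sided exact permutation p = 0.1, the smallest possible, 0.15 adjusted over the 3 ratios).

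Esrra encodes ERRα, the orphan receptor through which PGC-1 coactivators reach many mitochondrial genes, and lies on chromosome 19 at 6910977 to 6922048. It stood at 15.3, 14.7 and 46.8 CPM in cut 1 to 3, against 55.3, 63.2 and 74.3 CPM in sham 1 to 3. The groups did not overlap, and cut 3 lay nearer to sham 1 than to the other cut libraries. The log2 fold change was -1.33 ± 0.47 (adjusted p = 0.0732, edgeR quasi-likelihood, Benjamini-Hochberg), so Esrra was not called. It passed when replicate number entered as a block (-1.54, adjusted p = 0.0303), in DESeq2 (-1.35), in limma-voom (-1.54), on FPKM (-1.53 and -1.42) and without cut 3 (-2.10). With the block, 5 of 10 members were lower, beside 17.2% of all tested genes. Exons of Esrra overlap those of Trmt112 on the other strand and Mir6990 on the same strand, so its counts are uncertain to that extent.

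**Figure D3:**
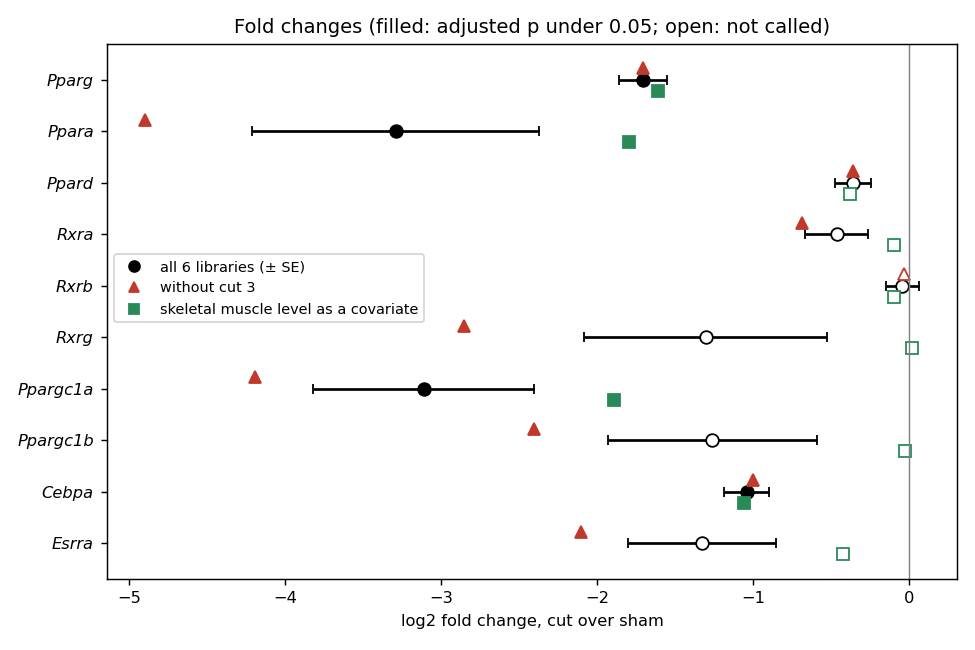
Log2 fold change of cut over sham tendon for each gene with all 6 libraries (black, ± SE), without cut 3 (red triangles) and with the summed skeletal muscle level as a covariate (green squares). Filled symbols have an adjusted p under 0.05. The covariate fit rests largely on cut 3. The 3 estimates lie close together for Pparg, Cebpa and Ppard and spread apart for Ppara, Ppargc1a, Rxrg, Ppargc1b and Esrra.

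In all, 3 patterns across the cut libraries can be described. In Pparg, Cebpa and Ppard cut 3 lay with cut 1 and cut 2. Against the sham mean, Pparg stood at log2 -1.51, -1.94 and -1.70 in cut 1 to 3 and Cebpa at -0.85, -1.18 and -1.12. In Ppara and Ppargc1a cut 3 was higher than cut 1 and cut 2 and still far below sham tendon. Ppara stood at -4.35, -5.84 and -2.06 and Ppargc1a at -3.77, -4.82 and -2.07 in cut 1 to 3. In Rxrg, Ppargc1b, Esrra and Rxra cut 3 was within or near the sham range, with log2 values of -0.09, -0.19, -0.46 and -0.10. The skeletal muscle markers had medians of -3.53, -4.91 and 0.05 in cut 1 to 3. Like that median, Ppara, Ppargc1a, Rxrg, Ppargc1b, Esrra and Rxra were highest in cut 3 among the cut libraries. Ppara and Ppargc1a did not reach the sham level there, as the muscle median did. The part of muscle in these patterns was not tested.

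**Figure D4:**
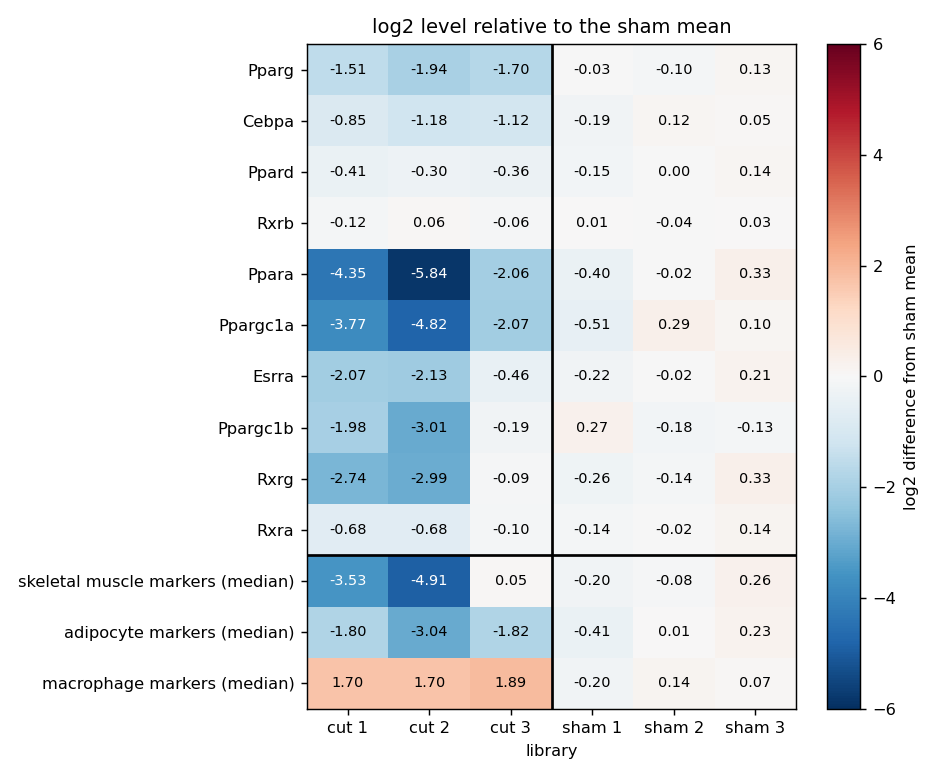
Log2 difference of each library (columns) from the sham mean for each gene (rows above the line) and for the median of the skeletal muscle, adipocyte and macrophage markers (rows below it). In cut 3 the muscle median is 0.05 and Rxrg is -0.09, while Pparg is -1.70 and Cebpa -1.12.

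With the summed muscle level as a covariate, 4 of 10 members were lower, beside 5.22% of all tested genes, and these were again Pparg (-1.61), Cebpa (-1.05), Ppara (-1.80) and Ppargc1a (-1.89). The other members were not called, Ppargc1b at -0.02, Rxra at -0.10 and Esrra at -0.42. In cut tendon only cut 3 had a muscle level near that of the sham libraries. Covariate results, here and for the lists below, therefore rest largely on cut 3. Without cut 3, 9 of 10 members were lower, beside 29.6% of all tested genes, the exception being Rxrb. When another library was left out, 2 members (Pparg and Cebpa) were lower without sham 1, sham 2, sham 3 or cut 1, beside 4.45%, 2.87%, 5.36% and 4.44% of tested genes, and 4 without cut 2, beside 5.92%. Macrophage markers, 8 of 8 measured and called higher, took 0.0797% to 0.110% of the counts in cut tendon and 0.0265% to 0.0334% in sham tendon. Endothelial markers, 4 of 8 called lower and 4 not called, took 0.0491% to 0.0752% in cut tendon and 0.101% to 0.116% in sham tendon. Cartilage markers took 0.189% to 0.925% in cut tendon and 0.00445% to 0.00827% in sham tendon, with 7 of 7 tested genes higher. Of 4 thermogenic adipocyte markers, Cidea was lower, Dio2 was higher, Ucp1 had too few counts to be tested and Elovl3 was at 0 in every library. The part of these cell types in the members' levels was not tested.

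Per length, Rxra was the most abundant member in both groups, at 22.6 ± 4.57 FPKM in cut tendon and 31.2 ± 2.10 FPKM in sham tendon (SD, n = 3 each). In cut tendon it was followed by Cebpa (13.0 ± 2.66), Rxrb (12.9 ± 0.73), Esrra (9.74 ± 6.53), Ppard (8.10 ± 0.41), Rxrg (3.73 ± 4.13), Pparg (2.98 ± 0.65), Ppargc1b (1.85 ± 1.69), Ppargc1a (1.12 ± 0.99) and Ppara (0.881 ± 0.998 FPKM). Cebpa lay below Rxra in the range of the 3 cut libraries, and from Rxrb down each gene overlapped its neighbour above. In sham tendon the order after Rxra was Cebpa (26.3 ± 2.65), Esrra (24.8 ± 2.94), Rxrb (13.2 ± 0.38), Ppard (10.3 ± 0.72), Ppargc1a (9.82 ± 2.57), Pparg (9.62 ± 0.55), Rxrg (9.45 ± 1.79), Ppara (8.81 ± 1.92) and Ppargc1b (4.53 ± 0.91 FPKM). Of these sham neighbours, Cebpa and Esrra overlapped, as did the run from Ppard through Ppara. At the other steps the ranges did not overlap. Between Rxra (lowest at 29.09 FPKM) and Cebpa (highest at 28.98 FPKM) the gap was narrow.

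The genes known as targets and partners of these receptors were taken from 6 lists of 106 genes in all. Among the PPARγ targets of adipocytes, 15 of 18 were lower, 0 were higher and 3 (Gpd1, Agpat2 and Slc2a4) did not pass the test, beside a background of 12.2% lower. The list had a median log2 fold change of -2.03, beside -0.02 for all tested genes. Plin1, which coats the adipocyte lipid droplet, stood at 36.9, 16.9 and 29.3 CPM in cut 1 to 3, against 118, 142 and 164 CPM in sham 1 to 3, and fell by 2.35 ± 0.31 on the log2 scale. Lipe, the hormone-sensitive lipase, fell by 2.18 ± 0.31 and Adipoq, the hormone adiponectin, by 1.99 ± 0.30. As for Pparg, cut 3 did not stand out in these 3 genes, but it did in others. Cut 3 was far the highest cut library in Gpd1 (51.5, 19.5 and 295 CPM in cut 1 to 3) and Slc2a4 (37.6, 16.9 and 234 CPM). It was the lowest in Agpat2 (18.4, 17.3 and 11.4 CPM). The medians of the list were -1.95, -3.17 and -1.41 in cut 1 to 3. Adjusted p-values were 0.00536 for Plin1, 0.0063 for Lipe and 0.00713 for Adipoq (edgeR quasi-likelihood, Benjamini-Hochberg). With 1 library left out the list held 8 to 18 lower genes, beside 2.87% to 29.6% of all tested genes. With the muscle covariate it held 12 lower and 1 higher, beside 5.22% lower and 10.9% higher of all tested genes.

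Of 18 tested targets of PPARα and PPARδ in fatty acid oxidation, 11 fell, 1 rose and 6 did not pass, beside 12.2% lower and 20.4% higher of all tested genes, with a median of -1.67. The medians of the list were -2.21, -2.32 and -0.85 in cut 1 to 3, beside muscle medians of -3.53, -4.91 and 0.05. With the muscle covariate 9 were lower, beside 5.22% of all tested genes, and Acadvl stood at -0.92 and was still called. A further 3, Cyp4a10, Cyp4a14 and Fgf21, had too few counts to be tested. Acadvl, which opens the oxidation of very long fatty acids, stood at 60.3, 64.3 and 172 CPM in cut 1 to 3, against 282, 339 and 355 CPM in sham 1 to 3, and fell by 1.72 ± 0.44 on the log2 scale. Cut 3 was the highest of the cut libraries and still below every sham library. Cpt1a, a carnitine palmitoyltransferase that lets fatty acids into mitochondria, rose by 0.69 ± 0.11, with 69.7, 73.4 and 61.9 CPM in cut 1 to 3 against 43.2, 43.4 and 40.7 CPM in sham 1 to 3. The PPAR targets Angptl4, an inhibitor of lipoprotein lipase (0.13 ± 0.45), and Plin2, a lipid droplet coat protein of many cell types (0.10 ± 0.15), did not pass the test. Adjusted p-values were 0.0288 for Acadvl and 0.0087 for Cpt1a (edgeR quasi-likelihood, Benjamini-Hochberg). Of the list, 1 or 2 genes were lower with sham 1, sham 2, sham 3, cut 1 or cut 2 left out, beside 2.87% to 5.92% of all tested genes, and 14 without cut 3, beside 29.6%. Acadvl lost its call with any library other than cut 3 left out. Cpt1a lost its call without sham 2 (0.68).

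Of 19 targets of the PGC-1 coactivators and ERR receptors, 1 was lower and 18 did not pass the test, beside 12.2% lower of all tested genes, with a median of -1.22 and negative values in all 19. The gene that fell was Sirt3, a mitochondrial deacetylase, by 0.97 ± 0.24 on the log2 scale (adjusted p = 0.0271, edgeR quasi-likelihood, Benjamini-Hochberg). It stood at 6.16, 4.79 and 8.96 CPM in cut 1 to 3, against 12.9, 12.4 and 13.6 CPM in sham 1 to 3. With the replicate block 8 of the list were lower, beside 17.2% of all genes, in DESeq2 12, beside 19.2%, and without cut 3 17, beside 29.6%. None was lower without cut 1 or any 1 of the sham libraries. With the muscle covariate 2 were lower, beside 5.22%, and Sirt3 was not one of them (-0.47). The medians of the list were -2.18, -2.24 and -0.32 in cut 1 to 3, beside muscle medians of -3.53, -4.91 and 0.05.

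Of 18 other coregulators of nuclear receptors, 2 were lower and 16 were not called, beside 12.2% lower of all tested genes, with a median of -0.23. With the replicate block 4 were lower, beside 17.2%, and 7 were lower in DESeq2, beside 19.2%, and without cut 3, beside 29.6%. Prdm16, a coregulator that promotes the brown adipocyte program, stood at 7.38, 6.38 and 9.76 CPM in cut 1 to 3, against 24.8, 25.1 and 19.7 CPM in sham 1 to 3, and fell by 1.56 ± 0.20 on the log2 scale. Nrip1, the corepressor RIP140, fell by 0.58 ± 0.15. Ncor1, a corepressor of unliganded receptors, stood at -0.56 ± 0.17 and did not pass the test. Adjusted p-values were 0.00525 for Prdm16 and 0.0289 for Nrip1 (edgeR quasi-likelihood, Benjamini-Hochberg), and Nrip1 lost its call with the muscle covariate, at a similar log2 fold change (-0.56), and without any library other than cut 3 (-0.67 to -0.50). Exons of Prdm16, and of Lipe, Acadvl and Sirt3 above, overlap a gene on the other strand.

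Among the other receptors that pair with RXR or belong to its partner families, 2 of 11 tested were lower, 3 were higher and 6 were not called, beside 12.2% lower and 20.4% higher of all tested genes. Nr4a2, an orphan receptor that can pair with RXR, stood at 101, 140 and 68.2 CPM in cut 1 to 3, against 27.7, 17.8 and 14.1 CPM in sham 1 to 3, and rose by 2.37 ± 0.35 on the log2 scale. Vdr, the vitamin D receptor, rose by 2.02 ± 0.49 and Nr1h4, the bile acid receptor FXR, by 1.28 ± 0.37, both at low levels (2.95 to 4.06 and 0.776 to 1.32 CPM in cut tendon, 0.382 to 1.55 and 0.327 to 0.492 CPM in sham tendon). Thrb, a thyroid hormone receptor, fell by 1.25 ± 0.26 and Nr1h3, the oxysterol receptor LXRα, by 0.99 ± 0.25. Adjusted p-values were 0.00683 for Nr4a2, 0.0252 for Vdr, 0.041 for Nr1h4, 0.0151 for Thrb and 0.0266 for Nr1h3 (edgeR quasi-likelihood, Benjamini-Hochberg). Nr1h4 lost its call with the replicate block (1.25), and Vdr, Nr1h4 and Nr1h3 lost theirs with the muscle covariate (1.78, 1.20 and -0.49). Leaving out cut 1 or sham 3 ended the calls of Vdr, Nr1h4, Thrb and Nr1h3, and exons of Nr1h3 overlap another gene on the same strand.

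Of 16 tested relatives of Esrra and Cebpa and other adipogenic factors, 5 were lower and 11 were not called, beside 12.2% lower of all tested genes, with a median of -0.33. The count was 1 without cut 1, sham 2 or sham 3, beside 4.44%, 2.87% and 5.36% of all tested genes. It was 2 without cut 2 or sham 1, beside 5.92% and 4.45%, and 8 without cut 3 or in DESeq2, beside 29.6% and 19.2%. With upper quartile scaling or no filter it was 3, where 1713 and 1712 of all genes were lower. Gata2, a factor that holds back adipocyte differentiation, stood at 5.58, 5.37 and 5.80 CPM in cut 1 to 3, against 16.5, 12.8 and 17.0 CPM in sham 1 to 3, and fell by 1.46 ± 0.16 on the log2 scale. Cebpb, which acts upstream of Pparg and Cebpa in adipogenesis, fell by 1.02 ± 0.24 and the stress factor Ddit3 by 0.50 ± 0.12. Ebf1, Zfp423 and Klf5, which also take part in adipogenesis, stood at -0.22 ± 0.16, 0.01 ± 0.13 and -1.02 ± 0.43 and did not pass the test. Adjusted p-values were 0.00393 for Gata2, 0.0217 for Cebpb and 0.0255 for Ddit3 (edgeR quasi-likelihood, Benjamini-Hochberg). Of these 3, Cebpb and Ddit3 lost their calls under several settings, among them leaving out cut 1, cut 2, sham 2 or sham 3, and their exons overlap genes on the other strand.

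**Figure D5:**
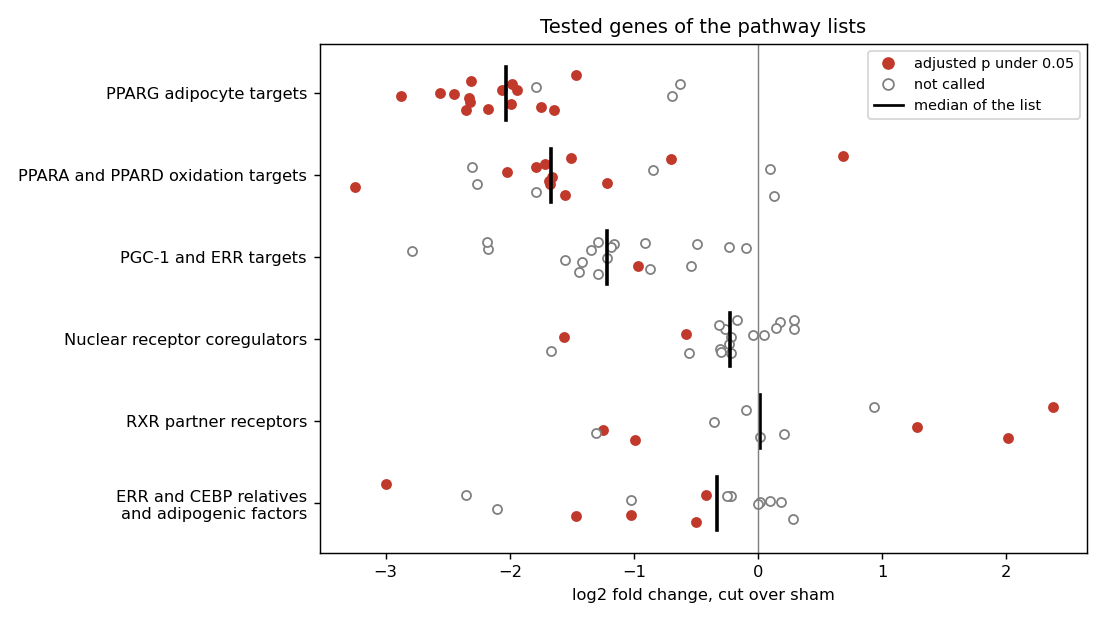
Log2 fold change of cut over sham tendon for each tested gene (points) of the 6 pathway lists, with the median of each list as a black bar. Filled red points passed the test, 15 of 18 in the PPARγ target list and 1 of 19 in the PGC-1 and ERR target list.

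The genes whose levels across the 6 libraries were most like those of a member were ranked by the root mean square difference of log2 CPM, each gene taken relative to its own sham mean, among 11025 genes with a mean of at least 5 CPM. Among the 5 most like Pparg were Net1, at a difference of 0.11, Ntrk2 (0.13), Aifm2 (0.13) and St6galnac3 (0.16), beside a median difference of 1.22 over all genes ranked. Net1, a guanine nucleotide exchange factor, stood at 72.3, 51.9 and 67.1 CPM in cut 1 to 3, against 171, 205 and 220 CPM in sham 1 to 3. The 5 most like Ppara were Vgll2 (0.19), Esrrb (0.24), Fabp3 (0.25), Perm1 (0.27) and Abra (0.31), beside a median of 3.03. Vgll2, a transcriptional cofactor expressed in skeletal muscle, stood at 4.803, 2.33 and 29.1 CPM in cut 1 to 3, against 87.4, 104 and 115 CPM in sham 1 to 3. The 5 most like Ppargc1a were Bdh1 (0.19), Lmod2 (0.27), Vwa3a (0.29), Ldhb (0.32) and Plin5 (0.32), beside a median of 2.59. Bdh1, an enzyme of ketone body use, stood at 10.41, 5.06 and 34.997 CPM in cut 1 to 3, against 130, 164 and 184 CPM in sham 1 to 3. These rankings describe the same 6 libraries, which differ in muscle content, and they carry no test.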

How the data were processed

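Read counts per gene, not normalized, and FPKM values were deposited by the authors as tables with a column per library. The submitters' processing notes name Trimmomatic, HISAT2 and GRCm38.p6. Per the labels' protocols, a mirVana kit gave the RNA and a stranded kit with removal of ribosomal RNA gave the libraries. Which program counted reads, and whether by strand, is not given in the sources used here. The deposited FPKM equal the counts divided by library total and a gene length that came out whole, within 0.01 bases, in 100% of the 15164 genes checked.

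The counts were tested with edgeR 4.0.16 under R 4.3.3, with limma 3.58.1 and DESeq2 1.42.0 as alternatives, and tables were made in Python 3.11.15. Genes were kept by filterByExpr (14561 tested, 7317 not), scaled by TMM and tested by robust quasi-likelihood fits and adjusted by Benjamini-Hochberg over every tested gene. Each SE is the size of the log2 fold change over the root of its F statistic. One count stood for 0.0319 to 0.0418 CPM before TMM scaling, and the common biological coefficient of variation was 0.296. FPKM were used for levels between genes and, as log2(FPKM + 1) and log2(FPKM + 0.1), for genes with at least 0.1 FPKM in 3 libraries, for limma as alternatives. On simulated data for this comparison (14463 genes tested), 95% of genes changed 4-fold and 30% of those changed 2-fold were called. Of all calls, 5.30% were false. The simulated spread followed a trend over level, and no simulated library differed in muscle as cut 3 does. These rates therefore need not hold for genes that, like the muscle markers, differed between cut 3 and the other cut libraries.

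Same-numbered cut and sham libraries deviated together from their group means (correlations across genes of 0.259, 0.130 and 0.409 for numbers 1, 2 and 3). Of unlike numbers, cut 2 with sham 1 (0.244) and cut 1 with sham 2 (0.115) were also positive, and the rest were negative. Cut 2 thus went more with sham 1 than with sham 2. Blocked values are printed where they change a call. The labels give no reason for a pairing. No libraries were duplicates (lowest chi-square per gene within a group 14.96).

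The members, lists, tests and alternatives were chosen with earlier results of these data known. Named beside the members were up to 3 genes per direction of each list, by smallest p among those called, and the 5 genes most like Pparg, Ppara and Ppargc1a, except that some genes these rules select are not reported here. Gpd1, Agpat2, Slc2a4, Angptl4, Plin2, Ncor1, Ebf1, Zfp423, Klf5, the untested genes and the detailed neighbours were chosen after their values were seen. Of 42 genes selected by rule, 14 overlap exons of another gene in GENCODE M21.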

Additional observations from a re-analysis of the deposited data

How the results depend on the processing

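Across all genes, 1780 were lower and 2967 higher in cut tendon. DESeq2 called 2776 lower, and the muscle covariate left 760 lower and 1593 higher. With 1 library left out, 424 to 4381 genes were lower and 1079 to 4206 higher, 2 to 9 members were lower, and of the 106 list genes 11 to 67 were lower (36 with all libraries, 60 in DESeq2) and 2 to 7 higher (4 with all libraries). The lowest gene counts came without sham 2 and the highest without cut 3. Rxrb turned positive with upper quartile scaling (0.012) and ran from -0.0934 to 0.0017 with 1 library left out, and Rxrg turned positive with the muscle covariate (0.0201). With the replicate block 2498 genes and 5 members were lower, Esrra being the added call (-1.54), no other member's call changed, and of the other named genes Nr1h4 lost its call (1.25). The 3 FPKM ratios kept their direction with each library left out and with 0.1 FPKM added (-2.03 for Ppara over Pparg, -1.37 for Rxrg over Rxra and -1.71 for Ppargc1a over Ppargc1b). The members, the named list genes and the count of each list gave 680 values under alternatives. Of these, 548 kept their call or a similar count, 102 were weaker, 27 stronger and 3, those of Rxrb and Rxrg above, reversed. A similar count need not be equal, as with 12 against 15 lower PPARγ targets under the muscle covariate. The cause of the changes was not tested. With 3 libraries per group a small change such as that of Ppard lies at the limit of what could be called.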
